A study of Homo sapiens with 8 samples.

Results

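NAD-captured RNA of HEK293T cells labelled DXO-KO was compared with ordinary RNA of the parental line, in 5 of the 8 libraries of the study. The 5 were chosen by their labels: 3 NAD-Capture DXO-KO-labelled libraries and 2 wild-type (WT) libraries enriched for non-ribosomal RNA with RiboMinus. HEK293T is a human embryonic kidney cell line, cultured here without treatment. The other 3 libraries, NAD-Capture of WT cells, enter where the NAD-Capture groups are compared and, for a few genes, as side values. Mock captures without the cyclase, which the labels describe as the background control, were not analysed here. Every library came from TRIzol-extracted total RNA. Per the labels' protocols, sequencing libraries of RiboMinus RNA were made with TruSeq reagents, and those of captured RNA with SMARTer reagents for low input. The knockout label, the capture and the kit therefore change together in this comparison, and their parts in any difference cannot be told apart. The libraries labelled DXO-KO are also called the captured libraries below. The labels do not say how DXO was disrupted, whether the line is a clone, or whether the replicates were separate cultures, so that the p-values may measure technical spread only.

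Some eukaryotic RNAs begin with nicotinamide adenine dinucleotide (NAD) in place of the methylated guanosine cap. DXO is a decapping enzyme that removes incomplete guanosine caps and the entire NAD from such RNAs, after which the RNA body can be degraded from its 5′ end. In NAD-Capture, an ADP-ribosyl cyclase swaps the nicotinamide for an alkyne, a click reaction adds biotin, and streptavidin beads bind the tagged RNA. Small nucleolar RNAs (snoRNAs) guide chemical modification of ribosomal RNA: those with C and D boxes direct ribose methylation, and those with H and ACA boxes direct pseudouridylation. Small Cajal body RNAs (scaRNAs) do the same for spliceosomal RNAs, and most of both kinds are cut out of the introns of host genes.

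The genes with the largest rises were nearly all small guide RNAs, so the sequences of 6 such RNAs are shown, 5′ to 3′, as DNA letters from GENCODE 29 transcripts on GRCh38. In the H/ACA snoRNAs and SCARNA1 the capitals mark the last ACA within 8 bases of the 3′ end. In the C/D snoRNAs they mark a C box core, TGATGA, and the last CTGA, the D box. SNORA62 (chr3:39411054-39411206, plus strand) and SNORA6 (chr3:39408389-39408539, plus strand) lie within RPSA, which encodes a ribosomal protein, and are 71.2% identical over 156 aligned columns. SNORD15A (chr11:75400391-75400538, plus strand) lies within RPS3, another ribosomal protein gene. SCARNA1 (chr1:27834401-27834566, plus strand) is intronic in PPP1R8, SNORD45A (chr1:75787889-75787972, plus strand) lies within RABGGTB, and SNORD11 (chr2:202293051-202293134, plus strand) is intronic in NOP58, which itself encodes a protein of C/D snoRNA particles. The other 4 overlap an annotated exon of at least 1 transcript of their host.
SCARNA1: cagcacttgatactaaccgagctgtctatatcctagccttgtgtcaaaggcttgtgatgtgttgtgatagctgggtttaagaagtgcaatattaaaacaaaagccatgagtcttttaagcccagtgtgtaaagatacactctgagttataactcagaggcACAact
SNORA62: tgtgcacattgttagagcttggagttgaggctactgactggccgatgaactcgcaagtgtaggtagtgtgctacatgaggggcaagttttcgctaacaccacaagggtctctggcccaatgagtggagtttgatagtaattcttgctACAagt
SNORA6: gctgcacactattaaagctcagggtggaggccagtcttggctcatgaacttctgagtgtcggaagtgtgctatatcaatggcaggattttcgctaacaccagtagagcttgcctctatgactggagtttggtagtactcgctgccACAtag
SNORD15A: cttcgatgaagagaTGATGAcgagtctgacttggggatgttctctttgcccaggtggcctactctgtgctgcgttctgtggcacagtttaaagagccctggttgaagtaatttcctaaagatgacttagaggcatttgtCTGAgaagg
SNORD45A: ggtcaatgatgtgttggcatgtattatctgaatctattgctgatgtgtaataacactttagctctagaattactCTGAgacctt
SNORD11: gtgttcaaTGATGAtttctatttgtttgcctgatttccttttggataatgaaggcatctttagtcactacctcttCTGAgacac
No TGATGA was found in SNORD45A. Searched on the transcribed strand, ACA within the last 8 bases was present in 82 of 89 tested H/ACA snoRNAs (92.1%). TGATGA was present in 23 of 32 tested C/D snoRNAs with a sequence (71.9%) and CTGA in 31 (96.9%). Over all snoRNAs of each family with a sequence, tested or not, the shares were 90.6%, 75.5% and 98.3%. The first annotated base was A in 5 of the 38 snoRNAs and scaRNAs with a sequence that rose and in 25 of the 143 tested.

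Values are FPKM, fragments per kilobase of transcript and 1000000 fragments, summed over the transcripts of a gene. Steps between the low values of the table put the depth at 10670467 and 8722244 fragments for RiboMinus replicates 1 and 2, but only 804478, 137681 and 80463 in DXO-KO-labelled replicates 1 to 3. These depths are estimates that hold only if FPKM was not rescaled between libraries, which the sources used here do not say. On 1 kb of effective length, 1 fragment was worth 0.0937 and 0.115 FPKM in RiboMinus and 1.24, 7.26 and 12.4 FPKM in the DXO-KO-labelled libraries, so a low value there can rest on a single fragment. Across the genes tested, Spearman's rho was 0.981 between the RiboMinus replicates and 0.627 to 0.761 between those labelled DXO-KO (genes are not independent replicates). VIM, CDH2, NEFM and KRT8, which HEK293T cells are known to express, were above 0 in every library. KRT18 was listed at 0 in DXO-KO-labelled replicate 3, and PAX2 was at most 3.65 FPKM anywhere. The summed level of 13 markers of blood, liver, endothelial, fibroblast and muscle cells was 3.52 to 4.99 FPKM in RiboMinus and at least 17.9 FPKM in each of the DXO-KO-labelled libraries, with PTPRC, HBB and MYH7 at 0 throughout. Of the 13, 7 and 5 were above 0 in RiboMinus replicates 1 and 2, and 7, 3 and 4 in DXO-KO-labelled replicates 1 to 3. With 1 fragment worth 7.26 and 12.4 FPKM on 1 kb in replicates 2 and 3 of that label, the sums there can rest on very few fragments. The part of such cells in the differences below was not tested, and in bulk RNA fewer cells of a type and less RNA per cell cannot be told apart.

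DXO, the targeted gene, goes against the label: its RNA was higher in the DXO-KO-labelled libraries. It measured 11.2 and 14.3 FPKM in RiboMinus replicates 1 and 2 and 128, 61.6 and 71.7 FPKM in DXO-KO-labelled replicates 1 to 3. The groups did not overlap, and the difference on the log2(FPKM + 1) scale was 2.61 ± 0.37 (SE, adjusted p = 0.033). In WT NAD-Capture the gene stood at 33.2, 17.2 and 27.1 FPKM, and the log2 difference between the NAD-Capture groups was 1.69 (adjusted p = 0.114). Those DXO values rest on about 147, 12 and 8 fragments in the DXO-KO-labelled libraries. An RNA level cannot show whether protein is made, and no label says which part of the gene was altered. The libraries are therefore called by their label throughout, and each direction below is that of the labelled libraries minus RiboMinus.

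Of 15071 genes with a mean of at least 1 FPKM, 498 (3.3%) passed an adjusted p of 0.05 in limma, 370 upward (2.46%) and 128 downward (0.849%). The median log2 difference of all genes was 0.20. The share of calls that were upward, 74.3%, moved to 54.6% when each library was centred on its median gene, to 57.7% under quantile normalization and to 65.8% when scaled to genes outside the short RNA lists. The median gene then stood at -0.04, -0.06 and -0.23. The number of calls turned on single libraries: 5 genes passed without RiboMinus replicate 1, 2 without RiboMinus replicate 2 and 1 without DXO-KO-labelled replicate 2, none of them among the 498, against 1210 without replicate 1 and 1513 without replicate 3 of that label. Every gene called had groups that did not overlap, but so had many genes not called. Of the 15071 genes, 3647 were apart upward and 3051 downward, so separation alone does not mark out the called genes.

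**Figure D1:**
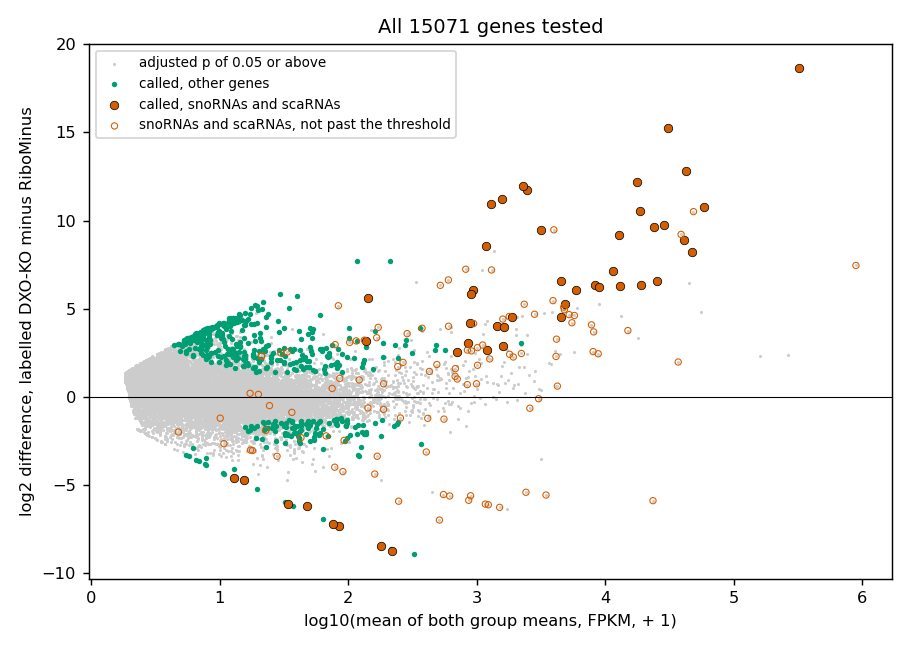
Log2 difference (labelled DXO-KO minus WT RiboMinus, y axis) against log10 of the mean FPKM of both groups plus 1 (x axis) for the 15071 genes tested; orange points are snoRNAs and scaRNAs, filled where past the threshold, and green points are other called genes. SCARNA1, at 10.79, lies far above 0 and ALYREF, at -3.34, below it, and the highest points are small guide RNAs.

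Small guide RNAs included the genes with the largest rises. Of all genes 2.46% passed upward and 0.849% downward, and microRNA genes, with a similar median of 2.98, are described further on. Among H/ACA snoRNAs, 24 of 89 tested members passed upward and 6 downward, with a median log2 difference of 2.60. Among scaRNAs, 9 of 24 tested members passed upward and 0 downward (median 2.49), and among C/D snoRNAs, 6 of 36 tested members passed upward and 2 downward (median 3.40). Many members failed the low-value filter: 36 of 256 C/D, 89 of 106 H/ACA and all 24 scaRNA genes were tested. A member above the filter only in the captured libraries had to differ, so these counts describe the tested members alone. Quantile normalization lowered the medians to 0.65 for C/D, 1.51 for H/ACA and 1.56 for scaRNAs.

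SCARNA1, a Cajal body guide RNA, measured 52.2 and 37.4 FPKM in RiboMinus and 27948, 70953 and 256442 FPKM in DXO-KO-labelled replicates 1 to 3, a log2 difference of 10.79 ± 1.16 (SE, adjusted p = 0.0207). SNORA62 stood at 7.90 and 26.8 FPKM against 6626, 24898 and 79751 FPKM (10.55 ± 1.15 SE, adjusted p = 0.0207). SNORD15A stood at 60.4 and 49.5 FPKM against 25608, 40007 and 104923 FPKM (9.74 ± 0.88 SE, adjusted p = 0.0158). In all of these, DXO-KO-labelled replicate 3, the shallowest library, gave the highest value and replicate 1, the deepest of the 3, the lowest. SNORA6 rose by 9.63 ± 0.89 (SE, adjusted p = 0.0163), from 38.6 and 55.7 to 18749, 29548 and 94649.9 FPKM. SNORA18 was at 112 and 149 FPKM in RiboMinus and 27720.4, 49301 and 168604 FPKM in the captured libraries (8.88 ± 1.15 SE, adjusted p = 0.0272). Further rises were those of SCARNA8 (9.19, adjusted p = 0.0222), SNORD15B (8.20, 0.0406), SNORA7B (7.14, 0.0222) and SNORA49 (6.59, 0.0496). In these too every DXO-KO-labelled library lay above both RiboMinus libraries, which the choice of the largest rises required.

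FPKM divides by an effective length, and for RNAs near the fragment size that division differed between libraries. At 133 nt, 1 fragment was worth 225 and 138 times its value on 1 kb in RiboMinus replicates 1 and 2, and 72.5, 75.1 and 246 times in DXO-KO-labelled replicates 1 to 3. The 109 snoRNAs and scaRNAs of 126 to 149 nt were therefore also counted as FPM, fragments per 1000000 of the library, a measure chosen after values were seen that leaves the length correction out. FPM rests on the estimated depths, and so on values not rescaled between libraries. In the 5 libraries, 92.5% to 97.6% of their values below 10 fragments came out within 0.1 of a whole number. Their sum was 141 and 232 FPM in RiboMinus and 5525, 9031 and 7691 in the DXO-KO-labelled libraries. That is a ratio of 40.2 (log2 5.33), and the groups did not overlap. The two-sided exact permutation p was 0.2, the smallest that 3 libraries against 2 can give. WT NAD-Capture stood between, at 2809, 3153 and 1466 FPM.

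The captured libraries were higher in each family, by different amounts. H/ACA snoRNAs of this length summed to 116 and 195 FPM in RiboMinus and 3477, 5715 and 4834 in DXO-KO-labelled replicates 1 to 3 (30.5 times). The 6 C/D snoRNAs summed to 24.9 and 35.9 against 1830.3, 2721 and 2347 (75.9 times). For the 11 scaRNAs the sums were 0.469 and 1.49 against 218, 595 and 509.5 (484 times), the RiboMinus values resting on 5 and 13 fragments.

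Single members spread widely. Of the 109, 81 had a higher mean FPM in the captured libraries, 13 a lower one and 15 were at 0 in all 5 libraries. The counts include members seen in only 1 of the groups: 13 were at 0 in RiboMinus only, and 10 at 0 in the captured libraries only, many of them on few fragments. SNORA20 held 0 and 5 fragments in RiboMinus and 271, 130 and 47 in the DXO-KO-labelled libraries, or 337, 944 and 585 FPM there. Every captured library lay above both RiboMinus libraries. SNORA18 gave 0.469 and 1.03 FPM against 368, 632 and 632. At the other end, SNORA71A gave 16.1 and 29.7 FPM in RiboMinus and 67.1, 36.3 and 49.7 in DXO-KO-labelled replicates 1 to 3, and SNORA70 11.9 and 17.8 against 33.6, 7.26 and 37.3. For SNORA70 the groups overlapped. SNORA48, the most abundant of these RNAs in RiboMinus, gave 19.4 and 34.8 FPM there and 8.702, 21.8 and 0 in the captured libraries, a ratio of 0.375. SNORA20, SNORA71A, SNORA70 and SNORA48 were singled out after their values were seen. These 5 H/ACA snoRNAs of similar length thus ranged from far higher to overlapping between the groups.

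**Figure D2:**
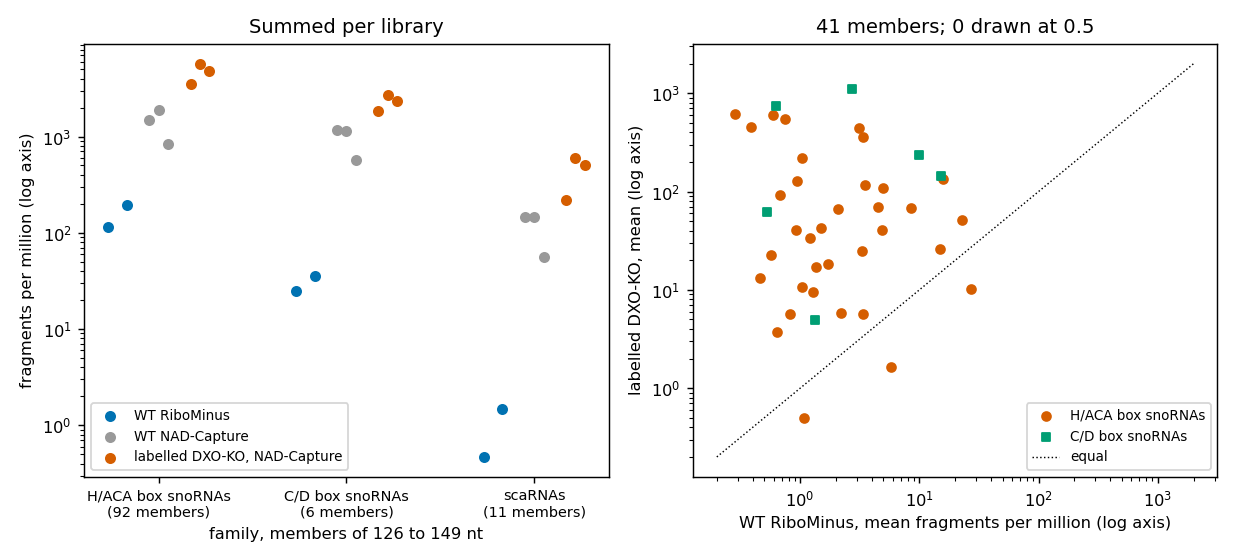
Left, FPM (log axis) summed over snoRNAs and scaRNAs of 126 to 149 nt in each library, by family and group; right, mean FPM (log axes) of the 41 members with at least 4 fragments in RiboMinus and 20 over the 5 libraries, in the DXO-KO-labelled libraries (y) and WT RiboMinus (x), with the dotted line at equality. In each family the DXO-KO-labelled libraries lie highest. The fragment minimum leaves out members with few fragments in both groups. It also leaves out members with under 4 in RiboMinus, however high in the captured libraries, and no scaRNA is plotted at right. The share above the line therefore describes the plotted members alone.

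Host transcripts were read beside the small RNAs they contain. Of 99 tested genes that hold a tested snoRNA or scaRNA on the same strand, 4 rose and 3 fell, against 2.46% and 0.849% of all genes. RPSA, which contains SNORA6 and SNORA62, measured 191 and 172 FPKM in RiboMinus and 159.7, 643 and 1095 FPKM in the captured libraries (log2 1.41 ± 0.82 SE, adjusted p = 0.395). RPS3, which contains SNORD15A and SNORD15B, measured 334 and 323 against 674, 1194 and 1122 FPKM (1.55 ± 0.40 SE, adjusted p = 0.103). PPP1R8, which contains SCARNA1, had a log2 difference of 0.0434 (adjusted p = 0.954). Reads of a snoRNA and of an exon that overlaps it cannot be told apart.

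Among called genes, 45 were listed at 0 in both RiboMinus libraries, and no fold is given for them. A value of 0 in such a table can be a failed estimate. SNORD45A was highest, at 95710.1, 568200.0 and 1262420.0 FPKM in DXO-KO-labelled replicates 1 to 3, followed by SNORD11 at 9115, 59810.5 and 114765 FPKM and SNORA36A, an H/ACA snoRNA, at 1319.6, 3067 and 10337 FPKM. SNORD45A and SNORD11 are both 84 nt long, so their values stand in the ratio of their fragments. The smallest whole numbers with the ratios seen in replicates 1 to 3 are 21, 19 and 11 fragments for SNORD45A and 2, 2 and 1 for SNORD11. At this length the highest SNORD11 value can thus rest on 1 fragment. SNORD87 was listed at 0 in 4 of the 5 libraries and at 5369880.0 FPKM in DXO-KO-labelled replicate 2, and its difference did not pass (adjusted p = 0.577).

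A further 19 called genes had a value of 0 in all captured libraries, led by MIR630 (1077 and 227 FPKM in RiboMinus), SNORD83B (537 and 341) and SNHG25, a snoRNA host gene (593 and 258). For some of the short ones the depth was limiting. The 6 H/ACA snoRNAs called lower held 3 to 20 fragments over both RiboMinus libraries, and an equal share of the DXO-KO-labelled libraries would be 0.158 to 1.05 fragments. For SNORD83B, the smallest value above 0 of any row of the same 93 nt in DXO-KO-labelled replicates 1 to 3 was 17720.0, 14678 and 68056 FPKM, far above its RiboMinus values. These are the values of MIR663A, and whether any of them is 1 fragment is not known, so they set no floor for SNORD83B. RNU4ATAC, the U4atac RNA of the minor spliceosome, stood at 50.2 and 73.7 FPKM in RiboMinus, and no row of its length was above 0 and under 121 FPKM in DXO-KO-labelled replicate 1. A loss of the 6 H/ACA snoRNAs was thus not detectable at this depth, and for the other short RNAs it could not be judged.

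Longer genes at 0 were better covered. BARX1, a homeobox transcription factor gene, held 245 fragments over the RiboMinus libraries (9.84 and 8.99 FPKM), where an equal share would be 12.9 fragments in those labelled DXO-KO, and was listed at 0 in all 3 (adjusted p = 0.0452). WT NAD-Capture gave 7.98, 4.63 and 9.25 FPKM, and the difference between the NAD-Capture groups did not pass (adjusted p = 0.109). HNRNPH2, a splicing factor gene, stood at 77.3 and 65.96 FPKM in RiboMinus and was listed at 0 in the captured libraries, while RPL36A-HNRNPH2, the readthrough record that shares its sequence, was at 0 in RiboMinus and at 48.2, 80.1 and 43.5 FPKM in the captured libraries. Reads shared by 2 such records cannot be told apart, and the pair is best read as 1 locus. NUDT3, a Nudix hydrolase with decapping activity, was also listed at 0 (11.95 and 14.4 FPKM in RiboMinus). It shares its locus with the readthrough RPS10-NUDT3, which measured 13.6 and 8.86 FPKM in RiboMinus and 16.2, 7.95 and 6.65 FPKM in the captured libraries, with overlapping groups. BARX1, HNRNPH2, NUDT3 and their readthrough partners were chosen after their values were seen.

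**Figure D3:**
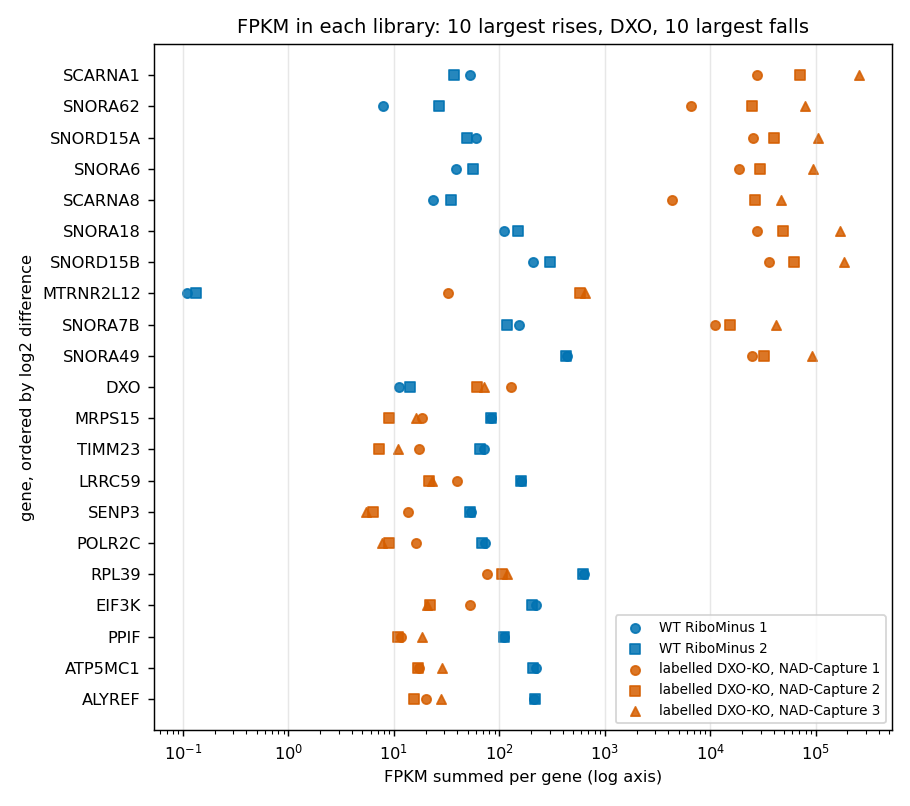
FPKM summed per gene (log axis) in each of the 5 libraries for the 10 genes with the largest rises, DXO and the 10 with the largest falls; blue marks are WT RiboMinus and orange marks the DXO-KO-labelled libraries, with 1 symbol per replicate. The colours do not overlap for any of the 21 genes, which for all but DXO was a condition of the choice. Among the small guide RNAs DXO-KO-labelled replicate 3 is always the highest.

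MTRNR2L12 was the only gene among the 10 largest rises that is no guide RNA. It is a nuclear gene nearly identical to part of the mitochondrial 16S ribosomal RNA, and reads of both may be split between them. It measured 0.11 and 0.133 FPKM in RiboMinus and 32.7, 581 and 644 FPKM in the DXO-KO-labelled libraries (7.70 ± 1.33 SE, adjusted p = 0.047).

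Protein-coding genes made up 283 of the 370 rises, and many were scarcely present in ordinary RNA. A mean below 1 FPKM in RiboMinus was found for 118 of the 283, and a mean of at least 10 FPKM for 67. Of the 13301 coding genes tested, 2212 had a mean below 1 FPKM there. A gene that low in RiboMinus passed the low-value filter mainly through its captured values and could hardly fall. Its direction was thus largely set by the filter, and the counts describe the tested genes alone. MUC5B, a gel-forming mucin, was at 0 and 0.0263 FPKM in RiboMinus and 30.99, 43.9 and 48.3 FPKM in the captured libraries, on about 442, 107 and 69 fragments. FUT7, a fucosyltransferase of selectin ligands, was at 0 in RiboMinus and at 34.01, 20.5 and 55.6 FPKM. FGF22, a fibroblast growth factor, was at 0 and 27.1, 31.04 and 40.7 FPKM. TLR9, a receptor for unmethylated DNA, was at 0.0514 and 0.0315 FPKM against 16.5, 13.95 and 20.3, and IL17C, a cytokine, at 0 against 30.97, 32.9 and 14.8 FPKM on about 21, 4 and 1 fragments. Such genes are typical of other tissues, and they were named after their values were seen. Of the 319 rising genes with a fragment estimate, 90 held at most 2 fragments in at least 1 DXO-KO-labelled library.

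The coding genes that rose were GC-rich. The median GC content of the transcript was 62.9% for those that rose, 52.4% for those that fell and 50.3% for all coding genes tested, with GC known for at least 98.7% of each. Above 66% GC, 56 of 418 genes rose (13.4%) and 1 fell. From 62 to 66%, 103 of 1187 rose (8.68%) and 6 fell. Of the 159 coding genes over 62% GC that rose, 97 had a mean below 1 FPKM in RiboMinus. Those 97 passed the low-value filter mainly through the captured libraries, so the shares by GC class cannot be separated from the filter. Between 50 and 54%, 19 of 1623 rose (1.17%) and 36 fell (2.22%). The median log2 difference above 66% GC was 1.34, 1.22 and 1.10 in DXO-KO-labelled replicates 1 to 3, against the RiboMinus mean. Between the NAD-Capture groups, the median above 66% GC was -0.28, so WT NAD-Capture stood higher at the median gene of that class. Capture and kit are shared by both NAD-Capture groups. Against RiboMinus the knockout label, the capture and the kit change together, and whether any of them moves with GC was not tested. The annotated start base could not be compared, because under 80% of the rising genes matched the promoter table.

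**Figure D4:**
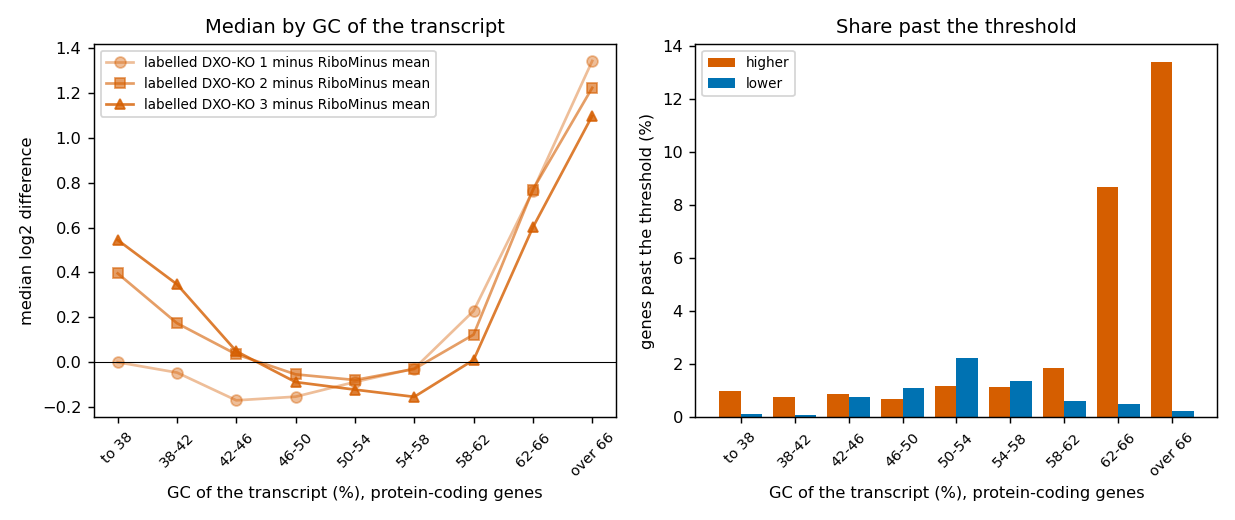
Left, median log2 difference of protein-coding genes in classes of transcript GC content, 1 line for each DXO-KO-labelled library minus the mean of the WT RiboMinus libraries; right, the share of each class past the threshold upward (orange) and downward (blue), in percent. All 3 lines climb above 62% GC, where the share that rose reaches 8.68% and 13.4%. Of the 159 genes that rose there, 97 had a mean below 1 FPKM in RiboMinus and passed the low-value filter mainly through the captured libraries.

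Some coding genes rose from a substantial level. MIF, a secreted cytokine, went from 403 and 530.2 to 2879, 4114 and 4829 FPKM (3.06 ± 0.53 SE, adjusted p = 0.047). PABPC1, the cytoplasmic poly(A)-binding protein, went from 100.2 and 103 to 418, 1039 and 1103 FPKM (2.93 ± 0.50 SE, adjusted p = 0.0461). JUN, an immediate early transcription factor, went from 20.5 and 22.4 to 213, 339 and 354 FPKM (3.72 ± 0.30 SE, adjusted p = 0.0124). In each of these the lowest DXO-KO-labelled library was several times the highest RiboMinus library, and replicate 1 gave the lowest value. The 3 genes were chosen after their values were seen, and no difference between the NAD-Capture groups passed for them, with log2 values of 0.61 (adjusted p = 0.585), 0.49 (adjusted p = 0.588) and 1.75 (adjusted p = 0.0774).

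The largest falls among well-expressed genes included genes of RNA export, mitochondria, translation and transcription. ALYREF, an adaptor that couples splicing to mRNA export, measured 215 and 219.6 FPKM in RiboMinus and 19.98, 15.6 and 27.9 FPKM in DXO-KO-labelled replicates 1 to 3 (-3.34 ± 0.30 SE, adjusted p = 0.0158). ATP5MC1, a c-subunit of the mitochondrial ATP synthase, measured 223 and 206 against 17.4, 17.1 and 28.3 FPKM (-3.33 ± 0.30 SE, adjusted p = 0.0158). PPIF, the mitochondrial cyclophilin, measured 111 and 112 against 11.8, 10.8 and 18.7 FPKM (-2.97 ± 0.30 SE, adjusted p = 0.0204). The captured libraries all lay below both RiboMinus values, as the choice of the largest falls required, and the RiboMinus values were close to each other. The captured values rest on few fragments: in replicates 1 to 3 about 14, 2 and 2 for ALYREF, 6, 1 and 1 for ATP5MC1 and 19, 3 and 3 for PPIF. Of the 114 falling genes with a fragment estimate, 40 held at most 2 fragments in at least 1 captured library. EIF3K, a subunit of initiation factor 3, went from 225 and 206 to 52.5, 22.1 and 20.5 FPKM (-2.86 ± 0.45 SE, adjusted p = 0.039). RPL39, a ribosomal protein, went from 640.1 and 620.2 to 76.6, 107 and 118 FPKM (-2.66 ± 0.29 SE, adjusted p = 0.0207). The other 5 were POLR2C, a subunit of RNA polymerase II (-2.65, adjusted p = 0.03), SENP3, a SUMO protease of the nucleolus (-2.63, 0.041), LRRC59, a ribosome-binding membrane protein (-2.52, 0.0274), TIMM23, a mitochondrial import channel (-2.51, 0.0387) and MRPS15, of the mitochondrial ribosome (-2.49, 0.0323). None of the 10 passed between the NAD-Capture groups, where their log2 differences ran from -1.35 for SENP3 to 0.854 for RPL39.

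In the gene lists below, members named besides the 3 most abundant were chosen after their values were seen. The enzymes that take off caps and digest RNA from its 5′ end were read next, since DXO is one of them. Of 22 tested, 2 rose and 2 fell (18.2% called, against 3.3% of all genes), with a median of -0.14. When scaled to genes outside the short RNA lists, 0 were called higher and 1 lower. DXO itself rose, and so did DCPS, the scavenger enzyme that hydrolyses cap remnants, from 18.4 and 19.1 to 60.8, 66.5 and 68.03 FPKM (1.74 ± 0.21 SE, adjusted p = 0.0245). EDC4, a scaffold of the decapping complex, fell from 32.8 and 34.3 to 9.04, 7.96 and 10.8 FPKM (-1.76 ± 0.27 SE, adjusted p = 0.0387). The other fall is the NUDT3 record, listed at 0, which shares its locus with RPS10-NUDT3 as described above. The 3 most abundant members, LSM3, LSM7 and LSM4 of the Lsm ring that binds decapped RNA, did not pass, with log2 differences of 2.01, 1.11 and 0.01. LSM4 was slightly negative under centring, quantile and short-RNA scaling. XRN2, the nuclear 5′ exonuclease, measured 62.4 and 61.96 against 35.3, 31.6 and 34.6 FPKM and missed the threshold (adjusted p = 0.096). NUDT12, which can also open NAD caps, measured 10.5 and 9.58 against 11.8, 20.2 and 30.6 FPKM (adjusted p = 0.317).

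None of 28 tested enzymes of NAD synthesis and consumption passed in limma (5 at an unadjusted p under 0.05; median 0.04). PARP1, the main consumer of NAD for DNA damage signalling, measured 305 and 289.7 against 208, 278 and 276 FPKM, and PARP2 measured 26.9 and 24.6 against 37.2, 34.8 and 52.9. NNT, a mitochondrial transhydrogenase, measured 20.2 and 20.3 against 17.6, 33.01 and 29.8 FPKM. None of 15 subunits of the RNA exosome, which degrades RNA from the 3′ end, passed either (2 at an unadjusted p under 0.05; median -0.20). EXOSC10, its nuclear catalytic subunit, measured 63.7 and 62.6 against 40.4, 33.02 and 33.9 FPKM (adjusted p = 0.118), EXOSC9 measured 60.98 and 52.8 against 32.9, 47.4 and 28.1, and EXOSC2 64.7 and 62.5 against 56.3, 111 and 77.8.

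Genes of the proteins that bind snoRNAs did not pass. Of 21 tested, none was called (8 at an unadjusted p under 0.05), and their median was -0.53. FBL, the methyltransferase of C/D particles, measured 182 and 179 FPKM in RiboMinus and 317, 305 and 440.3 FPKM in the captured libraries (adjusted p = 0.142). NOP10, of the H/ACA particles, measured 186 and 162 against 60.8, 75.4 and 114 FPKM (adjusted p = 0.136), and NHP2 130.2 and 137 against 142, 184 and 138. Among 25 noncoding snoRNA host genes, 2 rose and 1 fell (12% called, against 3.3% of all genes), with a median of 0.21. The fall is SNHG25, a record of 106 nt listed at 0 in the captured libraries and one of the short RNAs described above. SNHG19 rose by 2.26 and EPB41L4A-AS1 by 2.14. SNHG29, SNHG8 and SNHG16, the most abundant, had log2 differences of 0.21, -0.11 and -0.57, none past the threshold, and that of SNHG29 was negative under all 3 rescalings.

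Other short RNAs were high but scattered. RMRP, the RNA of RNase MRP, measured 66318 and 65676 FPKM against 114322, 401513 and 868551, and RPPH1, of RNase P, 44439.7 and 46023 against 83601, 286102 and 454312. VTRNA1-3, a vault RNA, measured 2674 and 576 against 9045, 14387 and 307508 FPKM. None of the 5 RNAs of this list passed (0 at an unadjusted p under 0.05), and quantile normalization made RMRP and RPPH1 negative. In the main fit their log2 differences were 2.37 ± 10.5 and 2.29 ± 7.74 (SE). With SEs that wide no difference of this size could pass, so the test does not decide for RMRP and RPPH1. RNU11, of the minor spliceosome, measured 604 and 643 against 15777, 54649 and 195576 FPKM (adjusted p = 0.096), and RNU12 and RNU6ATAC had log2 differences of 1.20 and 1.19 (adjusted p = 0.436 and 0.412). Of 1807 microRNA genes, 38 were tested, none rose and 2 fell (5.26% called, against 3.3% of all genes). Both falls, MIR630 and MIR3939, are short records listed at 0 in all captured libraries and belong to the short RNAs described above. MIR663A measured 2148 and 3067 against 17720.0, 14678 and 68056 FPKM, and MIR3661 and MIR8083 were above 0 in 2 and 1 of the captured libraries only.

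Cytoplasmic ribosomal protein mRNAs had a median log2 difference of 1.22, with 68 of 83 positive, and 5 rose while 1, RPL39, fell. The share called was 7.23%, against 3.3% of all genes. Quantile normalization brought the median to 0.02 and called 14 higher and 20 lower, and without DXO-KO-labelled replicate 1 37 were called higher and 1 lower. RPL31 measured 653 and 595 FPKM in RiboMinus and 2812, 24074 and 50356 in the captured libraries but did not pass (adjusted p = 0.144), and replicate 1 lay far below the others. RPL27 and RPL35, the next most abundant, had log2 differences of 2.44 and 2.61 (adjusted p = 0.236 and 0.214), both negative under quantile normalization. RPL13 rose from 56.98 and 60.4 to 154, 229 and 202 FPKM, and RPS10 from 133 and 162 to 577, 1056 and 1301. These genes have many processed pseudogenes, and reads split between copies make their levels uncertain.

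**Figure D5:**
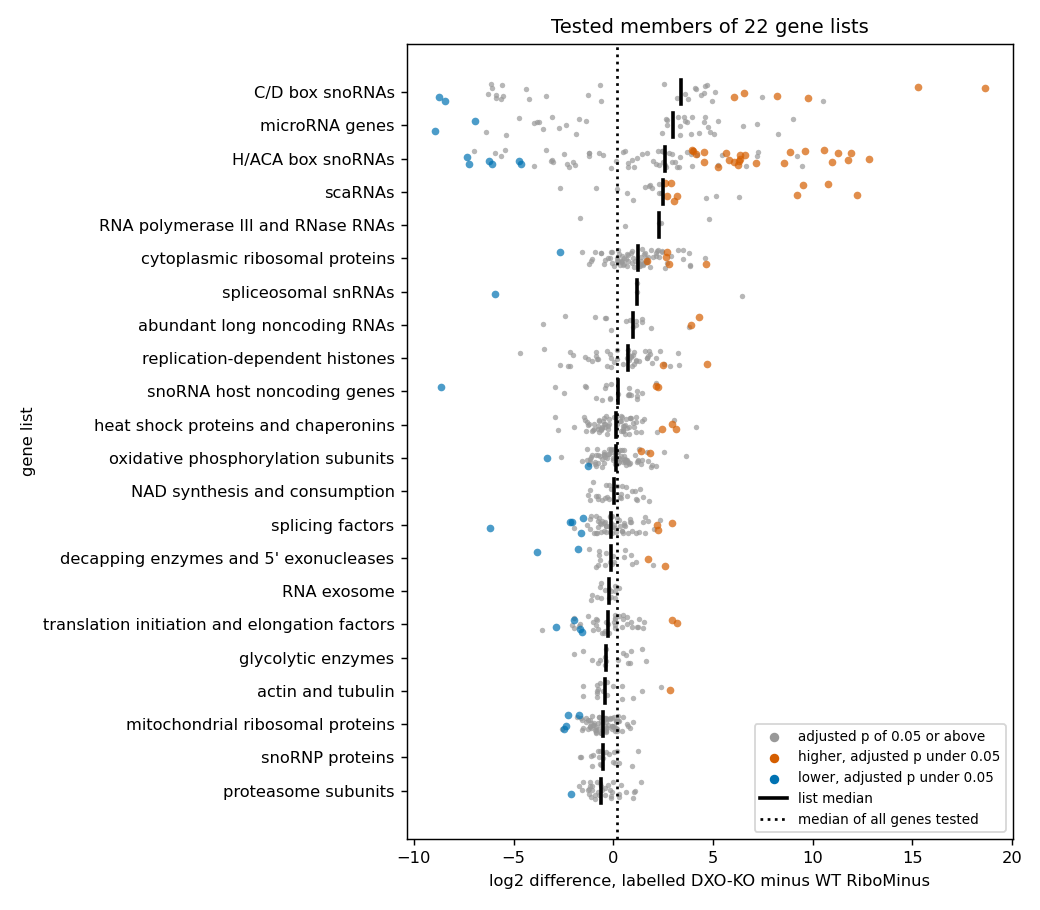
Log2 difference (labelled DXO-KO minus WT RiboMinus, x axis) of each tested member of 22 gene lists (y axis), orange where it rose, blue where it fell and grey otherwise; black bars are list medians and the dotted line is the median of all genes. The small guide RNA lists lie to the right with wide spread, while snoRNP proteins, proteasome subunits and mitochondrial ribosomal proteins lie to the left of the dotted line.

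Few mitochondrial ribosomal protein and proteasome genes passed. Of 77 mitochondrial ribosomal protein genes, none rose and 4 fell (5.19% called, against 3.3% of all genes), with 59 negative and a median of -0.51. MRPS15 was joined by MRPS2 (68.05 and 68.3 against 10.3, 19.6 and 9.51 FPKM), MRPS7 (-2.29) and MRPS12 (-1.71), all of the small subunit. MRPL51, MRPL37 and MRPS21, the most abundant, did not pass, at -0.42, -0.86 and 0.72. Of 36 proteasome genes, 28 were negative (median -0.64) and 1, PSMB7 (2.78% called, near the share of all genes), fell, from 191 and 188 to 52.4, 33.7 and 46.1 FPKM (-2.10 ± 0.27 SE, adjusted p = 0.0266). PSMA4, PSMB4 and PSMB1 had log2 differences of -0.04, -0.57 and -0.09. Of 79 nuclear-encoded subunits of oxidative phosphorylation, 2 rose and 2 fell (5.06% called; median 0.13): ATP5F1D rose by 1.83, and SDHB fell from 116 and 115 to 43.1, 44.4 and 52.9 FPKM. COX6C measured 78.9 and 76.6 against 419, 1201 and 1929.6 FPKM and narrowly missed (adjusted p = 0.0514), and COX7C and COX7B had 1.39 and 1.07.

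Translation and splicing factors moved both ways. Of 44 translation factors, 2 rose and 4 fell (13.6%, against 3.3% of all genes; median -0.25). EIF4A2, an initiation helicase whose introns hold several snoRNAs, rose from 51.9 and 51.5 to 299, 586 and 634 FPKM (3.19 ± 0.39 SE, adjusted p = 0.0245), and EEF1A2, an elongation factor, by 2.94. EIF4G1, the initiation scaffold, fell from 199.8 and 205 to 56.3, 38.4 and 58.6 FPKM (-1.99 ± 0.27 SE, adjusted p = 0.0305), with EIF3K, EIF3B (-1.66) and EIF5A (-1.56). EEF2, EEF1G and EIF3E did not pass, at 0.42, 1.17 and 1.29. Of 68 splicing factors, 3 were called higher and 5 lower (11.8%, against 3.3% of all genes; median -0.13). One of the 5 is the HNRNPH2 record, whose locus shows no such fall once its readthrough record is read with it. SRSF6, a splicing activator, fell (log2 -2.06 ± 0.27 SE, adjusted p = 0.0277), joined by SRSF3 (log2 -1.63), SRSF2 (-1.50) and PRPF8, the core of the spliceosome (-2.19). SNRPG, of the Sm ring, rose from 41.7 and 35.96 to 159, 187 and 201 FPKM, and SNRPF, of the same ring, by 2.95. HNRNPA2B1, HNRNPC and SNRPD2 did not pass, at 1.74, 1.59 and 0.95.

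Heat shock proteins, histones and long noncoding RNAs included a few rises. Of 69 chaperones, 3 rose and none fell (4.35% called, near the 3.3% of all genes; median 0.14). Under quantile normalization 4 were called higher and 10 lower, and without DXO-KO-labelled replicate 3 6 higher and 8 lower. HSPB1, a small heat shock protein, went from 20.2 and 23.4 to 146, 197 and 288 FPKM (3.16 ± 0.34 SE, adjusted p = 0.0207), while HSPE1 measured 104 and 96.3 against 631, 2708 and 3249.6 and narrowly missed (adjusted p = 0.0526). HSP90AA1 and HSP90AB1 had 1.56 and 0.48, neither past the threshold. Of 53 replication-dependent histone genes, 2 rose (3.77%, near the share of all genes), H2AC25 (2.49) and H3C14 (4.71). Under quantile normalization 5 were called higher and 19 lower, and without DXO-KO-labelled replicate 1 13 higher and 3 lower. H3C2, H2BC5 and H4C3 had 2.53, 1.92 and 0.87, none past the threshold and all negative under quantile normalization. Of 17 long noncoding RNAs, 2 rose and none fell (11.8% called, against 3.3% of all genes). NEAT1, the scaffold of nuclear paraspeckles, rose from 10.1 and 13.1 to 144, 213 and 209.6 FPKM (3.90 ± 0.28 SE, adjusted p = 0.00825) and H19 by 4.31. MALAT1 measured 173 and 190.2 against 1005, 3753 and 4430.4 FPKM (adjusted p = 0.0566), and TERC, the telomerase RNA, 102 and 131 against 276, 144 and 306.

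Among glycolytic, actin and tubulin genes, some of them often used as references, 1 passed. None of 17 glycolytic enzymes passed (4 at an unadjusted p under 0.05; median -0.37). GAPDH measured 1023 and 994 FPKM in RiboMinus and 547, 909 and 954 FPKM in the captured libraries, and ENO1 and LDHB had log2 differences of -0.43 and 0.85. Of 18 actin and tubulin genes and their partners, 1 rose (5.56% called, against 3.3% of all genes), TUBB4A, from 2.13 and 2.605 to 19.1, 19.7 and 33.9 FPKM. Under quantile normalization 1 of this list was called higher and 8 lower, and 1 glycolytic enzyme higher and 5 lower. Without DXO-KO-labelled replicate 1 the counts were 2 higher and 0 lower here, and 5 higher and 0 lower among glycolytic enzymes. Few calls in the main fit thus do not show stable levels. ACTB measured 1064 and 1085 against 406, 716 and 773, ACTG1 1310.3 and 1332 against 924, 1612 and 1489, and TMSB10 651 and 585 against 996, 4856 and 7153 FPKM (adjusted p = 0.228).

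Whether these differences go with the knockout label was tested directly, between libraries that share capture and kit. Of 17759 genes, 6 (0.0338%) passed between the DXO-KO-labelled libraries and WT NAD-Capture, 3 upward (0.0169%) and 3 downward (0.0169%). Of these, SNORD11 and SNORA32 had also risen against RiboMinus. No other gene named so far passed, which does not show that the groups were alike. SCARNA1, SNORA62, SNORA18 and SNORD15A had log2 differences of 2.34 (adjusted p = 0.545), 2.18 (adjusted p = 0.401), 2.00 (adjusted p = 0.573) and 1.97 (adjusted p = 0.521). NEAT1 stood at 42.9, 48.4 and 37.9 FPKM in WT NAD-Capture and a log2 difference of 2.09 (adjusted p = 0.0665).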

How the data were processed

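The deposited values are FPKM per RefSeq transcript and library. Per the submitters' processing notes, the tools named were TopHat2 2.1.1, Bowtie2 2.2.8.0 and Cuffdiff, with build hg19; the annotation and any scaling are not given in the sources used here. Of 53216 transcripts, 52667 (99.0%) were paired with 25934 gene symbols, and FPKM was summed per symbol. Groups were compared with limma 3.58.1 in R 4.3.3 (eBayes with trend, two-sided) on log2(FPKM + 1), which understates changes of low genes, over genes with a mean of at least 1 FPKM in the libraries compared, with Benjamini-Hochberg adjustment at 0.05 and no covariates; scripts were tested on simulated data. Depth was estimated from transcripts of 1500 to 6000 nt, where 71.6% to 73.6% of low values lay within 4% of whole multiples of a step, against 18.7% for evenly spread values. Fragment estimates carry counting error and PCR copies. Named genes were the 10 largest changes in each direction (no library at 0, groups apart, a mean of at least 50 FPKM in the higher group), 3 listed at 0 in each group, the 3 most abundant of each of 22 lists, and DXO; others are marked. Members, lists and rules were chosen with earlier results of these data known. Alternatives were other pseudocounts, filters, scalings, a transcript-level fit, all 8 libraries, a replicate block, a 2-fold limit and leaving out each replicate. Some items are not reported here.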

Additional observations from a re-analysis of the deposited data

Results flagged for a closer look

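The 6 genes below differed between the DXO-KO-labelled libraries and WT NAD-Capture in limma, so that their difference from the shared RiboMinus libraries was not the same in the 2 NAD-Capture groups. SNORD11 (log2 difference 15.28) and SNORA32 (10.96) were listed at 0 in every WT library and above 0 in every DXO-KO-labelled library. SNORA32, of 121 nt, measured 915 and 5106 FPKM in DXO-KO-labelled replicates 2 and 3. At 133 nt, 1 fragment was worth 545 and 3060 FPKM in those libraries. Its values there can thus rest on very few fragments, as can those of SNORD11 given above. MIR1248 (10.65) was at 26.6 FPKM in RiboMinus replicate 2, at 0 in the other WT libraries and at 445, 6235 and 1497 FPKM in DXO-KO-labelled replicates 1 to 3, and its annotated position overlaps SNORA81 on the same strand, so their reads cannot be told apart. PHACTR3-AS1 (-4.91), VPREB3 (-6.22) and ZBTB46-AS1 (-5.32) were at 0 in all 3 DXO-KO-labelled libraries. VPREB3, a surrogate light chain of B cell precursors, had 61.1, 70.5 and 93.2 FPKM in the WT libraries of NAD-Capture, on about 5, 5 and 10 fragments. These log2 values set one group at 0 and depend on the pseudocount.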

How the results depend on the processing

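Of the 151 named genes, none of the 86 past the threshold changed sign in the 15 settings tried, but all 86 lost their call under the replicate block and without RiboMinus replicate 1, RiboMinus replicate 2 or DXO-KO-labelled replicate 2; no filter on low values lost 58, scaling to genes outside the short RNA lists 22 and a pseudocount of 10 lost 21. Against the 498 calls, a pseudocount of 10 gave 255, no filter 78, genes above 0 in every library 1526, quantile normalization 810, all 8 libraries 877, transcript rows 3148 and leaving out 1 library 1 to 1513. The replicate block gave 0 (3592 at an unadjusted p under 0.05 in limma), but the numbers pair nothing that the labels name, and same-numbered libraries did not deviate together (correlations of -0.0447 and 0.00251). Against the 6 calls between the NAD-Capture groups, the block gave 4, a pseudocount of 10, centring, and scaling to genes outside the short RNA lists 11 each, genes above 0 in every library 70, quantile normalization 27, all 8 libraries 439 and leaving out 1 library 4 to 16. The log2 ratio of short RNA FPM stayed between 4.97 and 5.69 when any library was left out. Shallow captured libraries limit all low genes. Log2 differences that changed sign, in genes not past the threshold or named after their values were seen, and whose cause was not tested, were as follows. Under quantile normalization they were RNU6ATAC (-1.01), RNU12 (-0.75), RMRP (-1.11), RPPH1 (-1.49), MIR663A (-0.66), SNHG29 (-0.96), RPL27 (-0.50), RPL35 (-0.0194), H3C2 (-0.98), H2BC5 (-1.10), H4C3 (-2.41), COX7B (-0.65), EEF2 (-1.62), SNRPD2 (-0.27), HSP90AA1 (-0.21), HSP90AB1 (-1.18), LSM4 (-0.026), NHP2 (-0.0297), LDHB (-1.38) and RPL3 (-0.28). Centring reversed SNHG29 (-0.0315), LSM4 (-0.23) and NHP2 (-0.0415). Scaling to genes outside the short RNA lists reversed SNHG29 (-0.31), EEF2 (-0.11), HSP90AB1 (-0.0487), LSM4 (-0.51), EXOSC2 (-0.22), NNT (-0.16) and NHP2 (-0.32). The block reversed SNHG29 (-0.12), LSM4 (-0.16) and RPS10-NUDT3 (0.0485). When 1 library was left out, SNHG29 ran from -0.12 to 0.65, SNHG8 ran from -1.05 to 0.46, PSMA4 ran from -0.56 to 0.53, PSMB1 ran from -0.17 to 0.00749, LSM4 ran from -0.19 to 0.37, ACTG1 ran from -0.17 to 0.23 and RPS10-NUDT3 ran from -0.54 to 0.10. The medians of NAD enzymes, oxidative phosphorylation, chaperones and noncoding snoRNA hosts turned negative under all 3 rescalings, and those of histones, RNase and snRNA lists under quantile normalization.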

Other observations

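Targets of the transcription factor p53 were looked at after their values had been seen, from a list put together then, so the counts support nothing by themselves. Of 29 tested, 6 rose against RiboMinus and none fell, and 25 were positive (median 1.35, against 0.20 for all genes, of which 2.46% rose). MDM2, the ubiquitin ligase that restrains p53, measured 34.7 and 35.2 FPKM in RiboMinus, 41.98, 41.8 and 45.8 FPKM in WT NAD-Capture and 151, 427 and 429.7 FPKM in DXO-KO-labelled replicates 1 to 3 (3.08 ± 0.52 SE, adjusted p = 0.0448). PMAIP1, a promoter of apoptosis, went from 43.4 and 38.1 to 302, 812 and 947 FPKM (3.88 ± 0.54 SE, adjusted p = 0.0309). CDKN1A, a cell cycle inhibitor, went from 4.42 and 3.54 to 38.6, 60.6 and 19.6 FPKM, and GADD45A from 5.099 and 3.94 to 58.7, 53.99 and 172. RPS27L rose by 2.70 and GDF15 by 3.61, the latter on about 8, 2 and 1 fragments. Between the NAD-Capture groups none of the 29 passed in limma, with a log2 difference of 2.78 (adjusted p = 0.0678) for MDM2.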
